A study of Glycine max with 4 samples.

Results

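Chromosome 13 of soybean (Glycine max) carried 2599 of the 36297 sites at which an antibody against the GLYMA.06G314400 protein enriched chromatin in both replicates. A site, called a shared region here, is a stretch where overlapping peaks of the 2 deposited lists were joined and at least 1 peak came from each list. It was placed by the summit of its replicate 2 peak, taking the widest peak where there were several. The 19 other chromosomes held 33504 shared regions, and the rest lay on unplaced scaffolds. The ChIP group has 2 libraries and the input group, chromatin set aside before precipitation, has 2, as biological replicates. All 4 come from embryos of cultivar Williams 82 at the early maturation stage, dissected from seeds of 6 to 7 mm and fixed in 1% formaldehyde. No mutant, treatment or control antibody is among them. The input libraries entered only as the background inside the peak lists, so signal that recurs with this antibody cannot be told apart from binding of the protein.

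The peak names carry the word AREB3, a name used for factors of the bZIP family that bind the abscisic acid response element, a short DNA sequence in promoters of genes switched on as seeds fill and dry. Early maturation is the stage at which the soybean embryo starts to store protein and oil. Soybean chromosomes typically have gene-rich ends around a long, repeat-rich and gene-poor stretch near the centromere. Chromosome 13 is also known for carrying the nucleolus organizer, the array of ribosomal RNA genes. Genes, repeats and centromere positions were not placed on the coordinates used here.

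Chromosome 13 was the most densely occupied of the 20 chromosomes, and its sites were arranged differently along it. One sparse stretch near its start was followed by dense occupancy up to its end, where the 19 other chromosomes had dense ends and a sparse middle. The sites themselves lay within the range of the other chromosomes in strength, width and the share found again. The chromosome ends, for these counts, at the last peak end, 45820343, which makes it the 13th longest of 20 spans. It took up 4.83% of the summed spans and held 7.20% of the shared regions on chromosomes.

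The density of shared regions was 56.7 per Mb on chromosome 13, against 37.6 ± 6.61 per Mb on the 19 others (mean ± SD), which ran from 29.1 on chromosome 18 to 52.5 on chromosome 11. Each list alone gave the same order, with 61.9 replicate 1 peaks per Mb on chromosome 13 against a mean of 41.3 on the others, and 74.2 replicate 2 peaks per Mb against 49.4. Chromosome 13 was thus the highest of 20 in both libraries. An exact two-sided permutation of the chromosome label gave p = 0.05 for the density of shared regions, the smallest value that 20 chromosomes allow, so this test cannot go lower. Here and below the p states a rank among 20 chromosomes, and chromosome 13 was chosen with its unusual profile already known. Over the 22 measures compared in this way, 10 reached the smallest p. After Benjamini-Hochberg adjustment the p of those 10 was 0.11, while that of the other 12 lay between 0.592 and 0.90. Several of the 10 describe the same profile in different ways, so they are not independent and the adjusted p is a description as well.

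Along the chromosome, occupancy began thin, nearly stopped, rose unevenly and then stayed higher. The first 3 bins of 1 Mb held 11, 16 and 15 shared regions. The next 7 bins together held 13, where replicate 1 had 15 peaks and replicate 2 had 21. Counts then ran between 17 and 67 per bin over the 10 bins from 10 Mb to 20 Mb, with 379 shared regions in all. They peaked at 67 in the bin starting at 15 Mb and fell to 30 in that starting at 18 Mb. From 20 Mb on, none of the 25 whole bins fell below 43, and together they held 2096. The bin starting at 19 Mb held 51 shared regions and the next one 101, the largest difference between neighbours among the 45 whole bins.

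**Figure D1:**
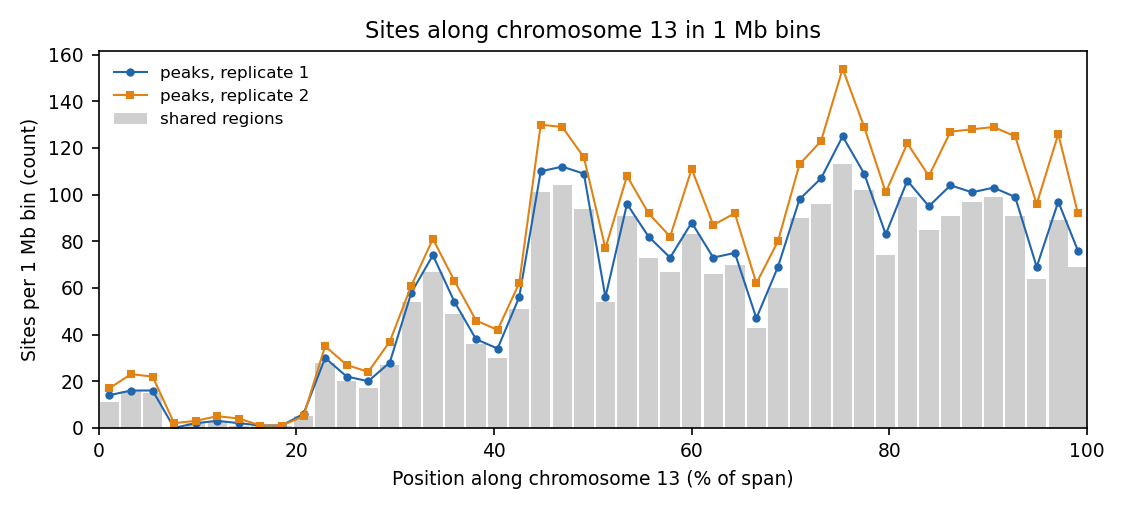
Shared regions (grey bars) and peaks of replicate 1 (blue circles) and replicate 2 (orange squares) per 1 Mb bin, plotted against position as a percent of the chromosome 13 span; the last bin is shorter. Both lists are near 0 in the 7 bins from 3 Mb to 10 Mb and reach their highest counts, 125 and 154 peaks, in the same bin, which holds 113 shared regions.

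The fullest bin started at 34 Mb and held 113 shared regions, from 125 peaks of replicate 1 and 154 of replicate 2. The bins starting at 21 Mb, 35 Mb, 20 Mb and 37 Mb followed with 104, 102, 101 and 99. The 5 fullest bins therefore fell in separate places, near the middle of the span and toward its far end. At the other end, the bin starting at 3 Mb held no shared region, no replicate 1 peak and 2 replicate 2 peaks. The bins starting at 6, 7 and 8 Mb held 1 shared region each, and that starting at 4 Mb held 2. Over the 45 whole bins the peak counts of the lists followed each other closely (Pearson r = 0.994, Spearman rho = 0.984), as a description of bins that share both libraries. Replicate 2 had more peaks in 42 of these bins, replicate 1 in 1, and the lists tied in 2.

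Cut into 10 equal segments of 4.58 Mb, numbered from its start, the chromosome held 42 shared regions in segment 1 and 8 in segment 2. Segments 3 and 4 held 89 and 226. Segments 5 to 7 held 363, 322 and 296, and segments 8 to 10 held 444, 414 and 395. Segments 5 to 10 thus contained 86.0% of the shared regions of the chromosome, and segments 1 and 2 contained 1.92%. The peaks of the single lists had the same order at the low end, with 46 and 10 replicate 1 peaks and 64 and 14 replicate 2 peaks in segments 1 and 2.

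The same cut on the 19 other chromosomes gave the opposite picture at the start and in the middle. In segment 1 chromosome 13 had 9.17 shared regions per Mb (exact Poisson 95% interval 6.61 to 12.4, counting error only), against 78.3 ± 20.6 on the others. In segment 2 it had 1.75 per Mb (0.754 to 3.44), against 59.02 ± 31.1. It ranked last of 20 in both, and the lowest of the others had 35.5 in segment 1 and 10.6 in segment 2. In the middle, segment 5 had 79.2 per Mb against 10.3 ± 7.21, segment 6 had 70.3 against 7.34 ± 3.42, and segment 7 had 64.6 against 10.8 ± 7.23. Chromosome 13 ranked highest of 20 in segments 5 to 8, and the highest of the others in segments 5, 6 and 7 had 31.8, 14.2 and 28.7 per Mb. Toward the far end the values drew closer. Segment 8 had 96.9 per Mb against 29.7 ± 21.7, segment 9 had 90.4 against 54.3 ± 24.8, where chromosome 13 ranked 3rd, and segment 10 had 86.2 against 75.1 ± 16.5, where it ranked 7th.

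**Figure D2:**
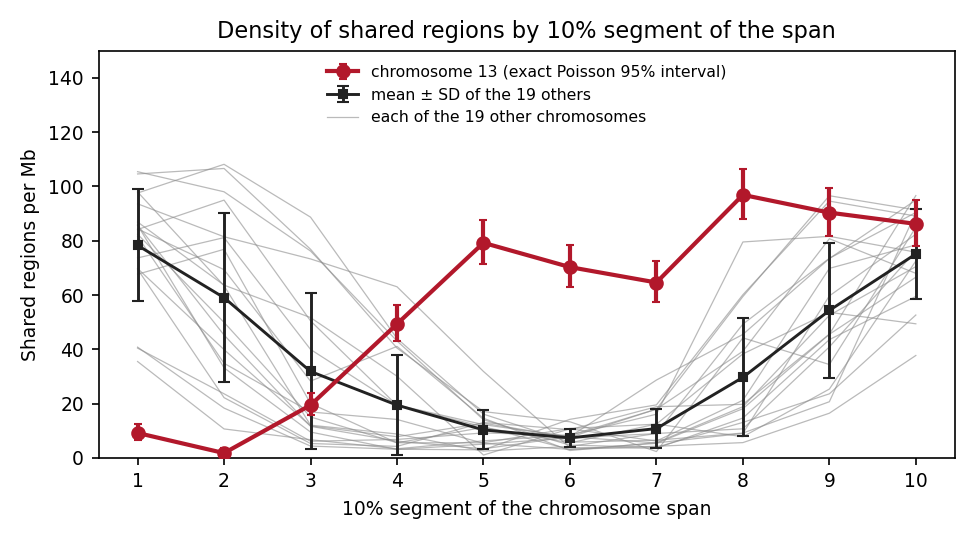
Shared regions per Mb in each 10% segment of the span for chromosome 13 (red, with exact Poisson 95% intervals), the mean ± SD of the 19 other chromosomes (black) and each of them (grey lines). Chromosome 13 lies under all others in segments 1 and 2 and above all others in segments 5 to 8, and among the others in segments 9 and 10.

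Summed into zones, the middle segments 5 and 6 of chromosome 13 had 1.59 times the density of its outer segments 1, 2, 9 and 10, against a mean ratio of 0.132 ± 0.0485 on the others (exact permutation p = 0.05, adjusted 0.11). Chromosome 8 had the highest of the other ratios, 0.256. Of all shared regions in segments 5 and 6 of the 20 chromosomes, 30.5% lay on chromosome 13. Its middle density of 74.7 per Mb compares with 8.81 ± 3.50 on the others. Its outer density of 46.9 per Mb was the lowest of 20, against 66.7 ± 8.43.

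That low outer value came from one end. Segments 1 and 2 of chromosome 13 held 50 shared regions, and segments 9 and 10 held 809, or 16.2 times as many. The fuller end of the other chromosomes held at most 3.41 times the sparser one, on chromosome 20, with 3.31 on chromosome 15 and 3.11 on chromosome 19. With 88.3 per Mb, the full end of chromosome 13 lay among the fuller ends of the others (82.6 ± 12.7 per Mb), while its sparse end had 5.46 per Mb against 23.1 to 74.1 for their sparser ends. Segment 1 supplied 9.61% of the regions in segments 1 and 10 together on chromosome 13, against 50.7 ± 10.98% on the others (exact permutation p = 0.05, adjusted 0.11).

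Chromosome 13 did have a sparse stretch as empty as those elsewhere, in another place. The window of 20% of the span with the fewest shared summits was centred at 12% of the span on chromosome 13 and between 30 and 65% on the 19 others. Its distance from the centre of the span was 38 percentage points on chromosome 13, against 9.79 ± 4.73 on the others (exact permutation p = 0.05, adjusted 0.11). In density this window did not stand apart, with 5.13 shared regions per Mb on chromosome 13 against 4.50 ± 1.72 on the others (exact permutation p = 0.85).

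Few bins of chromosome 13 were sparse, while its filled bins lay within the range of those elsewhere. Bins with under 20 shared regions made up 24.4% of the whole bins on chromosome 13, 11 of 45, against 47.4 ± 9.81% on the others. Chromosome 8 came next with 27.7% (exact permutation p = 0.05, adjusted 0.11). In the remaining bins the mean was 72.3 shared regions on chromosome 13 and 63.4 ± 7.07 on the others, where chromosome 17 had more, 78.3 (exact permutation p = 0.30, adjusted 0.592). Bins with 90 or more made up 13 of 45 on chromosome 13 (28.9%) and 91 of 891 on the others pooled (10.2%). Among the others, chromosome 17 had the most, 11 of 41. These shares were not tested. The median bin held 64 shared regions on chromosome 13 and 21 on the others.

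**Figure D3:**
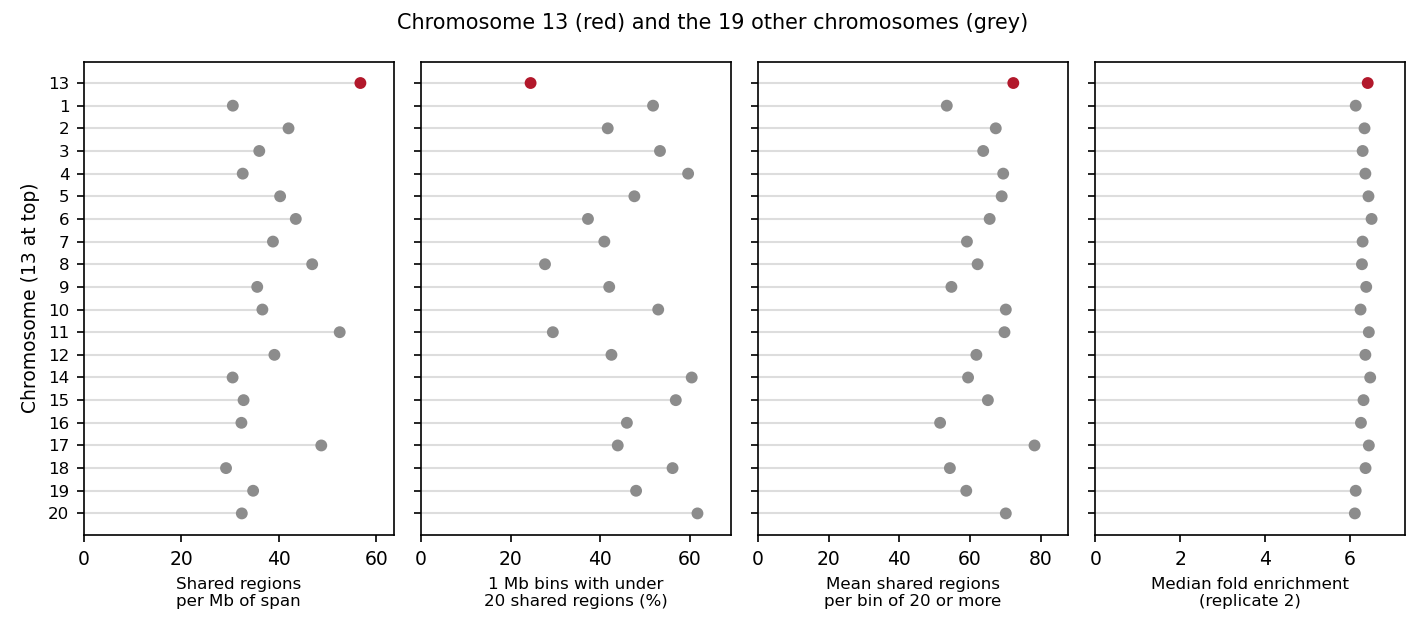
One point per chromosome, with chromosome 13 in red at the top and the 19 others in grey below, for the density of shared regions, the percent of 1 Mb bins with under 20 of them, their mean number in the other bins, and their median replicate 2 fold enrichment. Chromosome 13 is the highest in the first panel (56.7 per Mb), the lowest in the second (24.4%), next to chromosome 17 in the third (72.3) and among the others in the last (6.42).

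The median spacing of neighbouring sites on chromosome 13 lay within the range of the other chromosomes (exact permutation p = 0.35), while long gaps and empty windows were fewer there. Neighbouring shared summits lay a median of 8221 bp apart on chromosome 13 (interquartile range 2920 to 18469). The permutation set this against the mean of the medians of the 19 others, 9152 ± 899 bp. Over the pooled gaps of the others the median was 8988 bp (3131 to 22384). From segment 5 on, the median gap was 7631 bp, and 5 of 2233 gaps were over 100 kb. In segments 1 to 4, it was 15672 bp, and 36 of 364 gaps were over 100 kb. Over the whole chromosome such gaps were 41 of 2598 (1.58%), against 1559 of 33485 (4.66%) on the others. Close neighbours within 1000 bp made up 7.12% of gaps on chromosome 13, against a mean of 6.49 ± 0.541% over the others (exact permutation p = 0.35). Windows of 50 kb without a shared region made up 26.4% on chromosome 13, the lowest of 20, against 30.01 to 50.2% on the others. They numbered 242 of 917, and 216 of these lay in segments 1 to 4. Neither of these shares was tested.

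The 5 widest gaps between shared summits all lay in the sparse stretch. The widest ran from 2840985 to 4797175, or 1.96 Mb, with no replicate 1 peak and 5 replicate 2 peaks inside. The next ran from 8014713 to 9531229, or 1.52 Mb, and held a single replicate 1 peak. A gap of 1.32 Mb from 6016647 to 7334364 held 2 replicate 2 peaks. The gaps from 7334364 to 8014713 (0.680 Mb) and from 5232568 to 5670828 (0.438 Mb) held no peak of either list.

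The 8 shared regions of segment 2 were mostly weak. Fold enrichment, the authors' ratio of ChIP pileup to local background at the summit, lay between 3.05 and 11.2 in replicate 1 and between 3.73 and 7.48 in replicate 2. The strongest of them spanned 4797986 to 4798570, at 11.2-fold (replicate 1) and 7.48-fold (replicate 2), beside a neighbour at 4796990 to 4797426 with 7.75-fold and 6.80-fold. By the worse of its 2 ranks it stood at place 13768 of the 36297 shared regions, and the weakest of the 8 at place 35674. A region at 5232393 to 5232814 had 4.31-fold and 4.67-fold enrichment over a high background, 11.99 fragments in replicate 1 and 21.3 in replicate 2.

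Segment 1 was sparse, but its sites were about as strong as those of the whole chromosome. Median fold enrichment over its 42 shared regions was 8.24 (replicate 1) and 6.38 (replicate 2). The best spanned 2558586 to 2559275 and reached 36.5-fold and 23.4-fold. These medians were above (8.24) and just below (6.38) the 7.20 and 6.42 of the whole chromosome.

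Strength varied little along the chromosome outside segment 2. Replicate 1 medians of fold enrichment lay between 6.60 and 8.24, and replicate 2 medians between 6.34 and 6.62, over the other 9 segments. In segment 2 it was 4.91 and 4.49, from 8 regions. Bins with 90 or more shared regions had medians of 7.18 (replicate 1) and 6.39 (replicate 2), against 7.11 and 6.11 in bins with under 20. Across the 39 whole bins with at least 5 shared regions, bin count and median fold enrichment had a Spearman rho of -0.14 in replicate 1 and 0.02 in replicate 2, so no trend with crowding was visible.

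**Figure D4:**
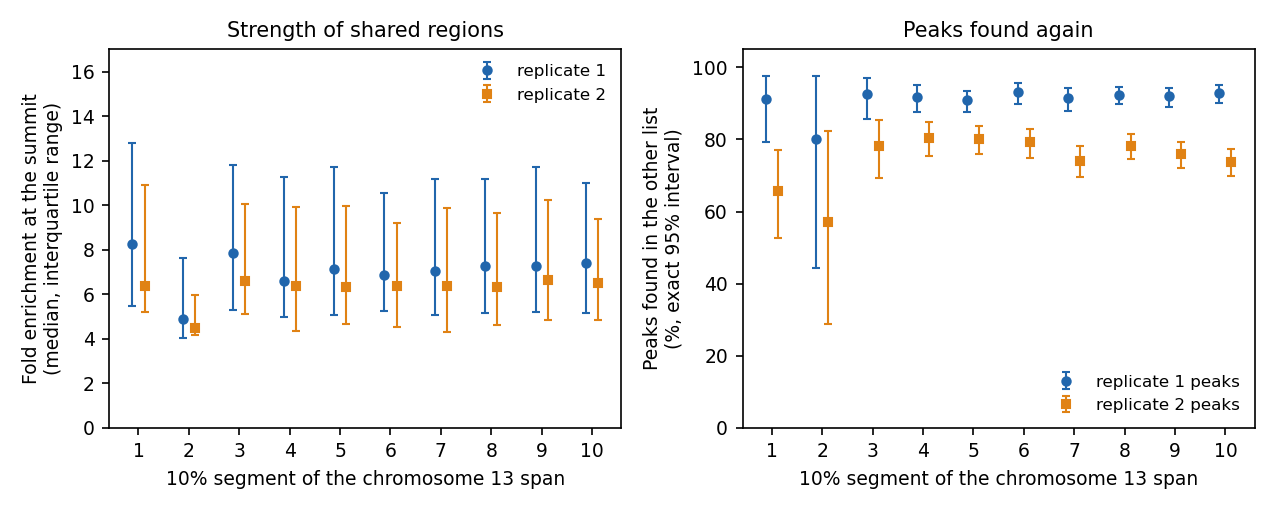
Left, median fold enrichment of shared regions with interquartile range in each 10% segment of chromosome 13; right, percent of peaks that overlap a peak of the other list with exact 95% intervals; replicate 1 in blue circles and replicate 2 in orange squares. Medians are lowest in segment 2 (4.91 and 4.49, from 8 regions), and the intervals on the right are wide in segments 1 and 2, where peaks are few.

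Fold enrichment on chromosome 13 lay within the range of the other chromosomes. Replicate 1 had a median of 7.20 (interquartile range 5.10 to 11.3), against a mean of medians of 7.13 ± 0.137 on the others (exact permutation p = 0.75). In replicate 2 it was 6.42 (4.64 to 9.73), against 6.33 ± 0.114 (p = 0.45 by the same exact permutation). Of its shared regions 560 (21.5%, exact 95% interval 19.98 to 23.2) had at least 10-fold enrichment in both replicates, where 20.9% of all shared regions did. The best 10% of shared regions by the worse of the 2 ranks included 274 of chromosome 13 (10.5%, 9.39 to 11.8), which is near the 10% of the genome. Chromosome 13 held 8 of the 100 best regions, 39 of the 500 best and 76 of the 1000 best. These shares, 8.00%, 7.80% and 7.60%, stand beside its 7.20% of all shared regions on chromosomes.

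Peak width lay within their range as well. Shared regions had a median replicate 1 peak width of 358 bp on chromosome 13, against 357 ± 5.60 bp on the others (exact permutation p = 0.80). For replicate 2 it was 371 bp against 375 ± 5.50 bp (exact permutation p = 0.40). Joined over both lists, regions of chromosome 13 were 208 to 2030 bp wide with a median of 405 bp. The widest, from 37115058 to 37117087, had 9.42-fold and 8.70-fold enrichment. Wide peaks were also the strong ones within the chromosome, where width and fold enrichment had a Spearman rho of 0.74 (replicate 1) and 0.70 (replicate 2). The regions of the 19 other chromosomes, pooled, had similar values, 0.72 and 0.67.

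The replicates found the same sites on chromosome 13 about as often as elsewhere, and since the rule asks for a peak in each list this share is given as a description. Of its 2837 replicate 1 peaks, 2612 overlapped a replicate 2 peak (92.1%, exact 95% interval 91.0 to 93.0), beside 91.9% in the whole list. Of its 3400 replicate 2 peaks, 2613 overlapped a replicate 1 peak (76.9%, 75.4 to 78.3), beside 76.6% in the whole list. A single peak of each replicate made up 2573 of the regions, and their summits lay a median of 21 bp apart over all regions, with 95.6% within 100 bp. In 13 regions 2 replicate 2 peaks met 1 replicate 1 peak, in 12 it was the reverse, and 1 region had 2 of each. At the edge of the rule, the smallest overlaps that made a region were 50, 61 and 75 bp, and the nearest replicate 1 peaks without a counterpart lay 48, 71 and 96 bp from a replicate 2 peak.

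Peaks found in a single list were weaker. Replicate 1 had 225 such peaks on the chromosome with a median fold enrichment of 4.26, against 7.20 for its peaks found again. Replicate 2 had 787 with 3.56, against 6.39. The best ranked of them at a background of at most 20 fragments was, in replicate 1, from 12577134 to 12577408 with 7.84-fold enrichment and 36 fragments at the summit. In replicate 2 it was from 34894658 to 34894928 with 7.75-fold enrichment and 56 fragments. They stood 41.2% and 35.1% of the way down their lists by rank.

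All but 1 of the 10 strongest sites of chromosome 13 lay in segments 5 to 10, which held 86.0% of all its shared regions. The best 10 shared regions, by the worse of the 2 ranks by peak p, had 33.9-fold to 57.4-fold enrichment in replicate 1 and 17.9-fold to 36.3-fold in replicate 2. Their summits in the 2 lists lay 3 to 56 bp apart. Of the 10, 6 were in segments 8 to 10, which held 48.2% of all shared regions of the chromosome. The best spanned 31638869 to 31639595, with 269 fragments over a background of 3.87 in replicate 1 and 345 over 9.31 in replicate 2. The next best lay 33.4 kb from it, at 31605595 to 31606170, reaching 45.0-fold and 36.3-fold, the highest replicate 2 value of the chromosome. No source used here names the genome build of these positions, and neighbouring genes were not analysed.

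The third spanned 34803871 to 34804524, at 51.3-fold (replicate 1) and 26.3-fold (replicate 2). It lay in the fullest 1 Mb bin of the chromosome. The fourth, at 39902069 to 39902702, had 37.4-fold and 34.6-fold enrichment. The ninth, at 39885347 to 39886210 with 33.9-fold and 31.8-fold, lay 16.5 kb from the fourth, which made a second close pair among the 10. Near the far end were the regions at 42155605 to 42156244, with 46.1-fold and 28.4-fold, and at 44762007 to 44763355, with 38.6-fold and 20.96-fold. The last of the 10, at 37560271 to 37561192, had 41.3-fold and 27.9-fold, and the sixth, at 23204119 to 23205103 in segment 6, had 38.7-fold and 25.2-fold. All but 1 of the 10 thus lay in segments 5 to 10, beside 86.0% of all shared regions of the chromosome.

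The exception was the region at 13161780 to 13162419, in segment 3, and of the 10 its fold enrichment differed most between the replicates. Replicate 1 gave it 57.4-fold enrichment, the highest of the chromosome, and replicate 2 gave 17.9-fold. The ChIP pileup was high in both, at 245 and 331 fragments. The background was 3.29 fragments in replicate 1, which is 1.10 times the lowest of that list, and 17.5 in replicate 2, which is 2.76 times the lowest. The part of the background in the difference was not tested.

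Apart from segments 2 and 4, the best region of each segment stood at place 197 or better among all shared regions. In segment 5 it was the region at 20718079 to 20718656, at 38.1-fold (replicate 1) and 23.8-fold (replicate 2). In segment 4 the best region, at 14975899 to 14976469, had 26.5-fold and 15.9-fold and stood at place 760. Crowding reached its height in the 50 kb window from 34650001 to 34700000 with 16 shared regions, with medians of 8.69-fold (replicate 1) and 8.25-fold (replicate 2). The window from 21550001 to 21600000 held 12, and 4 windows held 11, the earliest of them from 20600001 to 20650000.

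The local background, the one readout of the input in the lists, was slightly higher on chromosome 13. Recovered from fold enrichment and p at each summit, it had a median of 3.82 fragments in replicate 1, against 3.72 ± 0.0259 on the others (exact permutation p = 0.05, adjusted 0.11). In replicate 2 it was 8.55, against 8.34 ± 0.0598 (same exact permutation p and adjusted p). Chromosome 13 ranked highest of 20 in both lists, where the others had at most 3.76 fragments in replicate 1 and 8.36 in replicate 2. Most of the others had the same rounded median, 3.72 in replicate 1 and 8.36 in replicate 2. The small SDs reflect these ties, so they are no measure of how large the difference of chromosome 13 is. Within the chromosome the median was lowest in segment 2, 3.10 in replicate 1 and 6.88 in replicate 2, close to the lowest values of the lists, 3.00 and 6.36. In the other segments it ran from 3.58 to 3.93 and from 8.36 to 8.74. The lowest values, 3.00 and 6.36, were the same on the 19 other chromosomes, and several summits of segment 2 had them. Whether they are a floor of each list and not a local reading was not tested. Background is known at called summits only, so coverage of the sparse stretch between peaks was not measured, and its part in the sparse counts was not tested. Backgrounds above 20 fragments occurred at 3 of the 2837 replicate 1 peaks of chromosome 13, beside 44 of 39821 in the whole list. None of the 3 was found again. In replicate 2 they occurred at 12 of its 3400 peaks, beside 46 of 47716 in the whole list. Of the 12, 11 were found again and 9 lay in the bin starting at 38 Mb. These shares were not tested.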

How the data were processed

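ChIP-seq peak lists of 2 ChIP libraries were used, and the 2 input libraries' own values were not analysed here. Per the submitters' processing notes, Bowtie 0.12.7 and MACS2 were used. Peaks were called per replicate with a q threshold of 0.01, per the peak names in the file. No source used here gives the genome build, the duplicate handling or the pairing of ChIP with input. The deposited lists give for each peak a score (10 times its −log10 q, decimals dropped, but for 1 replicate 2 peak that differed by 1), its fold enrichment (a ratio), −log10 q, −log10 p and summit distance from the peak start, all made by the authors. Read depth is not in the lists. The lowest recovered background was 3.00 fragments in replicate 1 and 6.36 in replicate 2, which depends on fragment length and input scaling as well as on depth.

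Peaks overlapping by at least 1 bp were joined (Python 3.11.15, NumPy 2.4.6, SciPy 1.17.1). Spans ran from 0 to the last peak end of both lists. Positions are counted from 1. Rank is by −log10 p within a list. Pileup and background were solved from fold enrichment, with 1 fragment added to each, and a Poisson upper tail, matched within 0.001 (all but 1 replicate 2 peak). Chromosome 13 was compared with the mean of the 19 others by exact permutation of the chromosome label, two-sided. Peaks, regions and bins are not replicates, and exact 95% intervals cover counting error only. Joining, placing and recovery were tested on simulated peaks set well apart, with values made by the formula that recovery inverts. Close neighbours and joins of several peaks were not simulated. Regions named are the 10 best, the best of each 10% segment, the 5 fullest and emptiest bins, the 5 widest gaps, the 3 fullest windows, the members of segment 2, the widest region and the best unmatched peak of each list. The chromosome and all measures were chosen with earlier results of these data known, and 13 of the 22 measures after the lists had been seen.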

Additional observations from a re-analysis of the deposited data

How the results depend on the processing

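Of 64 alternative values, 56 kept the direction of the difference between chromosome 13 and the mean of the 19 others, or a count within 1.5 times, 7 turned the direction and 1 moved a count. Placing by the replicate 1 summit could not change density, the number of regions, median fold enrichment or median width. Those values are among the 56 and equal the main ones, so they carry no support. Density, the middle to outer ratio and the share of segment 1 kept their direction under every alternative run; their exact permutation p stayed at 0.05, the lowest it can take, which says nothing about size. With single lists the middle to outer ratio was 1.48 (without replicate 1) to 1.61 (without replicate 2), and the number of sites 3400 and 2837. Taking the 5000 best peaks per list left 309 shared regions on chromosome 13, since fewer peaks enter. Of the 7 that turned, 4 came with q of 1e-10 or less: median fold enrichment of 8.89 against 8.92 in replicate 1 and 7.75 against 7.81 in replicate 2, replicate 2 peak width of 413 against 412 bp, and 73.9% against 74.1% of replicate 2 peaks found again. The other 3 came with the 5000 best peaks: replicate 1 peak width of 547 against 551 bp, and 84.4% against 84.9% of replicate 1 peaks and 81.8% against 85.0% of replicate 2 peaks found again (exact permutation p of 0.95, 0.95 and 0.10). The cause was not tested. Bins of 0.5 Mb put the fullest bin at 20.5 Mb with 62 shared regions, and bins of 2 Mb put it at 34 Mb with 215. No paired analysis was possible because the ChIP lists form a single group and no input values were compared with them. A stretch without a peak is not shown to be unbound.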
